A study of Sus scrofa with 9 samples.

Results

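BMPR1B encodes a type I receptor of bone morphogenetic proteins, and BMP2 and BMP4 encode ligands of that family. Their transcripts were measured in the longissimus dorsi muscle of Bama minipigs, a small pig breed, as 3 of the 3196 genes that could be named on the array, through 6 of its 43603 probes. They were chosen by a measured value, the HFHSD minus CD difference of BMPR1B on these same arrays, which had passed the test over all probes, so the values of all 3 genes are given as a description, with no test. Members are all probes whose RefSeq accession belongs to one of these genes: 3 probes for BMPR1B (NM_001039745), 1 for BMP2 (NM_001195399) and 2 for BMP4 (NM_001101031). The array files name no genome build, so no coordinates are given.

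The animals of the high-fat high-sucrose group (HFHSD) ate 53% basal feed, 37% sucrose and 10% lard. Those of the control group (CD) ate standard pig chow. In both groups the diets began when the animals were 6 months old and lasted 23 months. Both sexes were used, all animals were gonadally intact, and feeding was restricted in both groups, per the labels, which give neither the sex of each animal nor any allele. The series holds 6 HFHSD and 3 CD arrays, each from a separate animal, while the growth protocol speaks of 6 CD animals and the design text of 3.

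Bone morphogenetic proteins are secreted dimers that bring together type I and type II serine/threonine kinase receptors at the cell surface. The activated type I receptor phosphorylates SMAD1, SMAD5 and SMAD9, which enter the nucleus with SMAD4 and induce genes such as those of the ID family. Extracellular antagonists such as noggin hold the ligands away from their receptors. In muscle the pathway is known for supporting fibre mass and for steering satellite cells and other progenitors, and BMP2 and BMP4 are also known for committing progenitors to the bone and fat cell lineages.

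Values are log2 of the background-subtracted signal minus the 75th percentile of the array, so that 0 is the 75th percentile. CD 1 was the dimmest array: the scanner software called 36.7% of its spots well above background, and between 51.1% and 68.8% of those of the other 8. The weakest signal so called on CD 1 was 32.8 intensity units, against 9.89 and 11.5 on CD 2 and CD 3 and 7.80 to 14.7 on the HFHSD arrays. On the log2 scale used here these limits were -2.03 on CD 1, -4.49 on CD 2 and -4.15 on CD 3, and a value below its array's limit is only a bound. Of the muscle fibre markers 12 of 15 were measured, and their summed level, in multiples of the 75th percentile, was 12903 to 17169 in CD and 10706 to 13884 in HFHSD. Of the adipocyte markers 10 of 11 were measured. Of these, 9 were higher in HFHSD and 1 passed the test, beside 42.4% higher and 0.995% passed over all named genes. Their summed level was 88.5 to 118.1 in CD and 117.7 to 373.8 in HFHSD. LIPE and FABP4 carried most of that sum, at HFHSD means of 6.68 and 5.98 in log2, where the next brightest marker, ADIPOQ, was at 1.44. PLIN1, a coat protein of the adipocyte lipid droplet, was well above background on 0 of 3 CD arrays. LEP, CIDEC and RETN were so on 2 of 3, and the other measured adipocyte markers on 3 of 3. RETN was lower in HFHSD, with a difference of -0.77. The part of these cells in the values below was not tested, and in bulk muscle a change in cell number and a change in RNA per cell cannot be told apart.

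BMPR1B was higher in every HFHSD animal than in every CD animal by its brightest probe, A_72_P223502. The signal of that probe was 49.5 on CD 1, 66.2 on CD 2 and 70.0 on CD 3. In HFHSD it had a lowest value of 121.4, a median of 210.4 and a highest value of 234.7. On the log2 scale the CD arrays read -1.43, -1.75 and -1.54, a mean of -1.57 ± 0.16 (SD, n = 3). The HFHSD arrays ran from -0.47 to 0.45 around a median of -0.072, with a mean of -0.053 ± 0.40 (SD, n = 6). The difference was 1.52 (SE 0.25), a 2.87-fold higher level on this scale. The probe was well above background on all 9 arrays and saturated on none, and it was the only one of the 6 probes so detected. Within HFHSD, animals 1, 4 and 2 were the highest and animals 3, 5 and 6 the lowest.

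The second BMPR1B probe, A_72_P457538, also separated the groups by measured values, but close to the limit of detection. Its CD arrays read -3.64, -4.47 and -4.19, none of them well above background. Its HFHSD arrays ran from -3.32 to -2.12 with a median of -2.55, and 5 of 6 were well above background. The limit of CD 1, -2.03, lay above every HFHSD value, so the order of CD 1 against them is not known. The measured means were -4.10 ± 0.42 (SD, n = 3) and -2.60 ± 0.44 (SD, n = 6), a difference of 1.50 (SE 0.30). With each CD array counted as no lower than the weakest signal it called well above background, the processed signal was 1.93-fold higher in HFHSD. This is not a strict minimum. HFHSD 3 entered at its measured signal of 16.6, which was not called although the weakest called signal of that array was 14.7. After the normexp background correction described below, the difference was -0.12 with percentile scaling and 0.063 with quantile normalisation. Animals 1 and 4 were again the highest and animal 3 the lowest.

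The third BMPR1B probe, A_72_P442786, did not separate the groups. It was well above background on 0 of 3 CD and 3 of 6 HFHSD arrays. Its CD arrays read -3.94, -6.35 and -6.15, and CD 1 alone lay above 4 of the 6 HFHSD arrays, which ran from -5.84 to -3.42 with a median of -4.26. The difference of the measured means was 1.08 (SE 0.62), and no fold is given because the bound from the CD detection limits fell below 1.

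**Figure D1:**
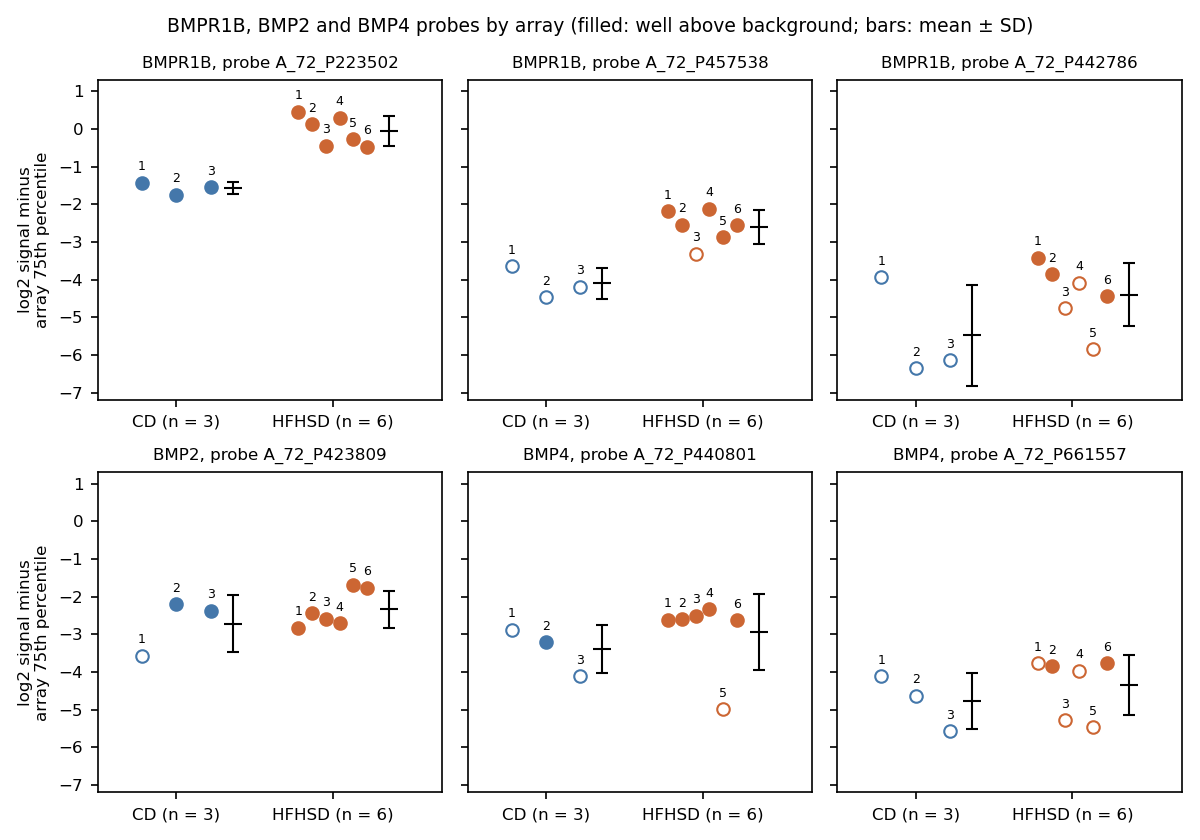
Values of the 6 probes by array, as log2 signal minus the 75th percentile of the array, for CD (blue, n = 3) and HFHSD (orange, n = 6). Points carry the animal's number, filled points are well above background and open points are not, and the bars are the mean ± SD. By measured values the groups stand apart for the first pair of BMPR1B probes and overlap for the other 4 probes.

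In the fit over all tested probes, in which a probe had to be well above background on at least 3 arrays, 5 of the 6 probes were tested and A_72_P661557 of BMP4 was not. Of these, 2 BMPR1B probes passed as higher, where 0.695% of all 27922 tested probes did. Of all probes that passed, 56.2% were higher, and the alternatives gave from 38.1%, with probes well above background on all 9 arrays, to 71.6%, with normexp and percentile scaling. This contrast chose BMPR1B, and nothing is read from the count. By measured values the HFHSD arrays lay wholly above the CD arrays for the same 2 probes, as they did for 4.78% of tested probes. Among 2613 named genes, each represented by its brightest probe, BMPR1B had the 25th largest difference in the direction of HFHSD.

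By the brightest probe, A_72_P223502, the BMPR1B difference had the same sign and a similar size on each slide that held both diets. It was 1.53 on slide 2, with 3 HFHSD animals and CD 1, and 1.77 on slide 3, with HFHSD 2 and the other 2 CD animals. Slide 1 held only HFHSD 5 and HFHSD 6, and with slide as a fixed block, where these 2 arrays carry no information on diet, the difference was 1.64. For A_72_P457538 it was 1.10 on slide 2 and 1.78 on slide 3, and for A_72_P442786 it was -0.15 and 2.39.

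The size of the BMPR1B difference changed with the background correction. With normexp correction of the median spot signal, which adds an offset of 50 to every spot, the difference of A_72_P223502 was 0.73 after percentile scaling and 0.80 after quantile normalisation. The difference of A_72_P457538 was then -0.12 and 0.063, and that of A_72_P442786 -0.30 and 0.053, so the sign of the dimmer pair of probes was positive in the scanner software's processed signal and negative in the first of these settings. Leaving out 1 array at a time moved the difference of A_72_P223502 between 1.42 and 1.60.

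**Figure D2:**
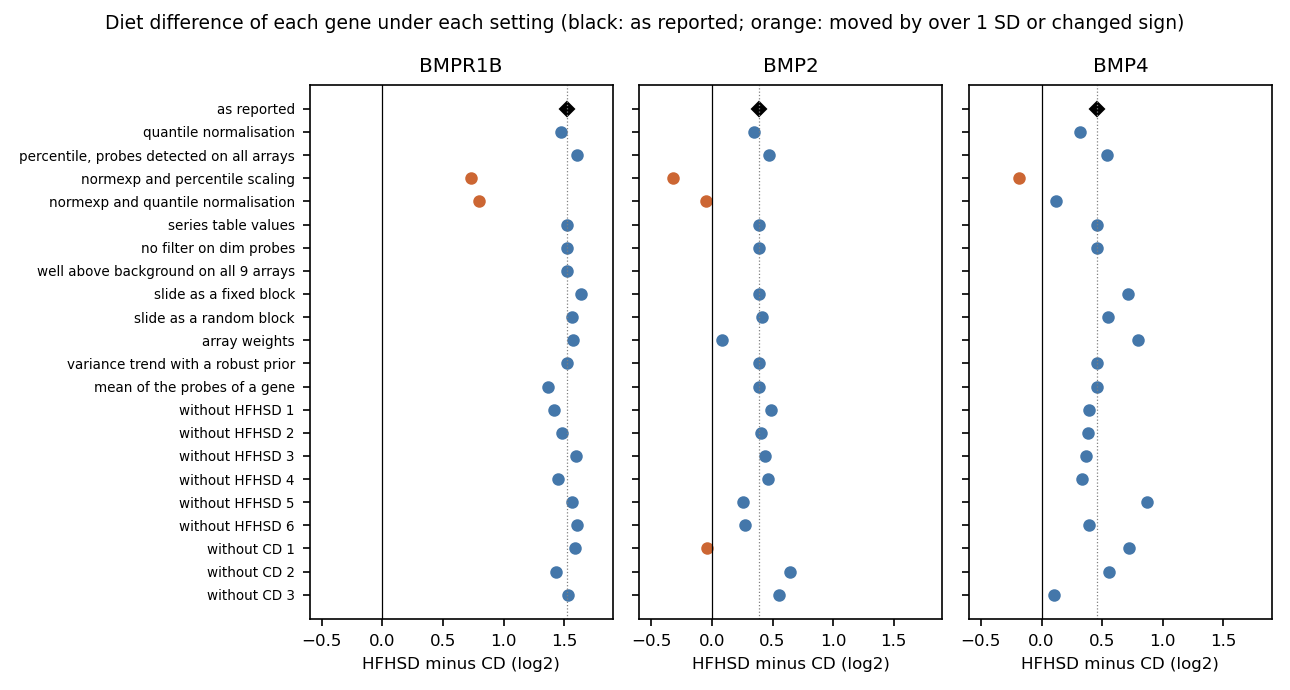
HFHSD minus CD difference in log2 of the brightest probe of each gene (in the setting so named, of the mean of its probes) under each setting, with the reported value as a black diamond and a dotted line. Orange points moved by more than 1 SD between arrays or changed sign: BMPR1B stays above 0 throughout, from 0.73 to 1.64, whereas BMP2 reaches -0.32 and BMP4 -0.18 with normexp and percentile scaling. The series table values, the changed filters and the variance trend cannot move a difference, so their points lie on the dotted line by design.

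BMP2 overlapped between the diets. Its single probe, A_72_P423809, read -3.58 on CD 1, where it was not well above background, -2.20 on CD 2 and -2.37 on CD 3, a mean of -2.72 ± 0.75 (SD, n = 3). The 6 HFHSD arrays, all well above background, ran from -2.82 to -1.68 with a median of -2.52 and a mean of -2.33 ± 0.49 (SD, n = 6). HFHSD 5 and HFHSD 6, the animals of slide 1, were the highest at -1.68 and -1.76, while the other 4 HFHSD animals lay below both CD 2 and CD 3. The difference was 0.39 (SE 0.37) and rested on CD 1: without that array it was -0.044. On slide 2 it was 0.87, where CD 1 is the only control, and on slide 3 it was -0.15.

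BMP4 overlapped as well and was near the detection limit. Its brighter probe, A_72_P440801, read -2.88, -3.21 and -4.12 in CD, with only CD 2 well above background, a mean of -3.40 ± 0.64 (SD, n = 3). Of the 6 HFHSD arrays 5 lay close together, between -2.62 and -2.33, and above all 3 measured CD values but below the limit of CD 1, whereas HFHSD 5 read -5.00 and was not well above background. The mean of HFHSD was -2.95 ± 1.01 (SD, n = 6) and the difference 0.46 (SE 0.57). It was 0.87 without HFHSD 5 and 0.099 without CD 3, and on the slides with both diets it was 0.40 and 1.07. The dimmer probe, A_72_P661557, was well above background on 0 of 3 CD and 2 of 6 HFHSD arrays and ran from -5.58 to -4.11 in CD and from -5.48 to -3.77 in HFHSD, with no fold to be given.

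The genes whose profile over the 9 arrays lay nearest to BMPR1B were TIGD4, KLF5, PREPL and EIF1AX. Likeness was the root mean square difference after each gene was centred on its own mean, in log2, and it was 0.29 for TIGD4, 0.34 for KLF5, 0.36 for PREPL and 0.39 for EIF1AX, where BMPR1B itself deviated from its mean by 0.78. BMP2 lay at 0.91 from BMPR1B and BMP4 at 0.93, further than the spread of BMPR1B itself, and the ligands lay at 1.19 from each other. BMP2 deviated from its own mean by 0.54 and BMP4 by 0.84. The distance depends on these spreads, so it does not rank the ligands by the shape of their profiles. The diet difference of TIGD4 was 1.27 and that of KLF5, a zinc finger transcription factor, 1.13. Likeness to BMPR1B had already fixed these differences in large part, so they are given with no test. For BMP2 the nearest genes were KLF17 (0.091), NLN (0.22), PAQR8 (0.22) and KCNIP1 (0.22), and for BMP4 they were HSPB1 (0.46), EFNB2 (0.47), IGF2 (0.49) and HBEGF (0.49). These are descriptions of 9 arrays that share the diets and slides.

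**Figure D3:**
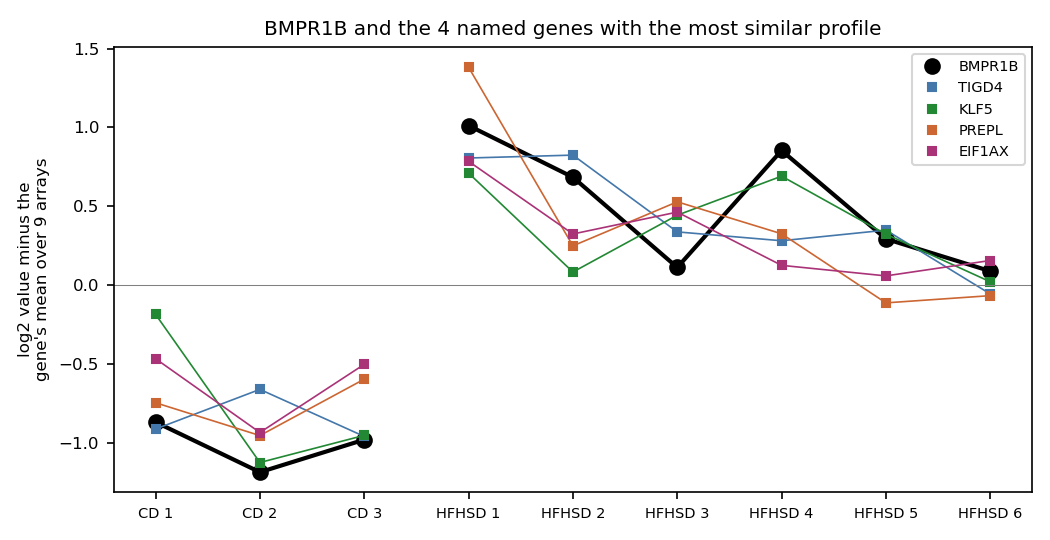
Value of BMPR1B (black) and of the 4 named genes with the most similar profile, in log2 minus the mean of each gene over the 9 arrays, for the CD arrays on the left and the HFHSD arrays on the right. Lines only join the points of one gene; all 5 genes are below their mean on the 3 CD arrays, and BMPR1B is highest on HFHSD 1 at 1.01 and lowest on CD 2 at -1.19.

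Of 98 other genes listed for the pathway, 40 had a named probe and 36 were measured. One passed, DMP1, where 0.995% of the 2613 named genes passed, and 2 had an unadjusted p under 0.05, where 18.4% of named genes did. The groups did not overlap for 3 of the 36 (DMP1, AMHR2 and ACAN) by measured values, beside 13% of named genes. Over the 36 genes the median difference was 0.13 and 24 were higher in HFHSD, beside a median of -0.086 and 42.4% higher over all named genes. With normexp and percentile scaling the median was -0.057 and 15 of 36 were higher, beside -0.052 and 45.7% over all named genes. Quantile normalisation gave 22 of 36, beside 46.8%, and normexp with quantile normalisation 25 of 36, beside 48.5%. The percentile over probes well above background on all arrays gave 26 of 36, beside 49.9%. At the level of probes, 1 of 70 passed, beside 1.24% of all tested probes, and 4 of 70 had an unadjusted p under 0.05, beside 16.5%. These 4 were 1 probe each of DMP1, AMHR2, BMPR1A and FST.

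Of the other ligands 5 were measured and, by the brightest probe of each, 0 passed with limma, 0 also by an unadjusted p under 0.05. Their differences ran from 0.069 for GDF9, an oocyte growth factor, to 0.49 for BMP15 (SE 0.55, adjusted p = 0.742), whose second probe went the other way at -1.09. BMP7, a ligand known for kidney and brown fat development, differed by 0.23 (adjusted p = 0.879) and was well above background on 0 of 3 CD arrays. GDF5, a ligand that binds BMPR1B with preference in joint development, differed by 0.20 (adjusted p = 0.887), and BMP5 by 0.11 (adjusted p = 0.908). The signs of these 4 ligands turned with the processing or with single arrays.

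Among the receptors, BMPR1A, the type I receptor most closely related to BMPR1B, had a difference of 0.39 through its brightest probe (SE 0.26, adjusted p = 0.515). Its CD arrays read -1.35, -1.08 and -1.46, and the HFHSD arrays ran from -1.45 to -0.39 with a median of -0.89, so the groups overlapped. A dimmer probe of BMPR1A, A_72_P532929, had a mean of -3.15 ± 0.55 (SD, n = 3) in CD and of -1.80 ± 0.76 (SD, n = 6) in HFHSD. The means lay 1.35 apart (SE 0.45), with an adjusted p of 0.164 by limma. Its measured values did not overlap, but CD 1, at -3.67, lay below the limit of that array, which in turn lay above 3 of the 6 HFHSD values, so its order against them is not known. The type II receptors that can pair with BMPR1B showed small differences: BMPR2 differed by 0.014 (SE 0.22, adjusted p = 0.987), ACVR2A by 0.072 (SE 0.17, adjusted p = 0.890) and ACVR2B by -0.14 (SE 0.23, adjusted p = 0.835). The measured values of AMHR2, the receptor of anti-Müllerian hormone, did not overlap: its CD arrays read -4.02, -4.00 and -4.68 and the HFHSD arrays ran from -3.64 to -2.78. The measured means differed by 1.01 (SE 0.26, adjusted p = 0.0872), and by -0.16 when normexp was followed by percentile scaling. Only 1 of 3 CD arrays was well above background, and the limit of CD 1 lay above every HFHSD value, so neither the lack of overlap nor the size rests on levels detected in all CD animals. ENG, a co-receptor of endothelium, differed by -0.40 (adjusted p = 0.467).

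Of the antagonists and extracellular modulators 3 of 22 were measured, and by the brightest probe of each 0 passed with limma, 0 also by an unadjusted p under 0.05. FST, the follistatin that binds activins, myostatin and BMPs, differed by 0.79 (SE 0.48, adjusted p = 0.475), and its HFHSD arrays fell apart into 0.59 and 0.54 on HFHSD 5 and HFHSD 6, the pair on slide 1, and -1.62 to -0.78 on the others. A second FST probe differed by 1.15 (limma, unadjusted p = 0.00849, adjusted p = 0.133). NOG, which encodes noggin, differed by 0.42 (adjusted p = 0.566), and DCN, a matrix proteoglycan, by 0.15 (adjusted p = 0.834).

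Of the intracellular genes of the pathway, 0 of the 13 measured SMADs, regulators and targets passed with limma by their brightest probe, and 0 reached an unadjusted p under 0.05. SMAD1 differed by 0.17 (adjusted p = 0.870), SMAD4 by -0.34 (adjusted p = 0.479) and the inhibitory SMAD7 by -0.57 (adjusted p = 0.377), while TOB1, a repressor of SMAD activity, differed by 0.46 (adjusted p = 0.423). ID1, the classical target of the pathway, read 3.63, 3.41 and 3.79 in CD and ran from 2.02 to 3.81 in HFHSD with a median of 2.89. Its difference was -0.72 (SE 0.36, adjusted p = 0.373), with HFHSD 2 alone above the CD arrays. ID3 differed by -0.27 (adjusted p = 0.669), ID2 by 0.22 (adjusted p = 0.792) and ID4 by 0.097 (adjusted p = 0.886). HAMP, the iron hormone hepcidin whose gene answers BMP signals in liver, differed by 0.70 (adjusted p = 0.531), and DLX5 by -0.38 (adjusted p = 0.675).

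**Figure D4:**
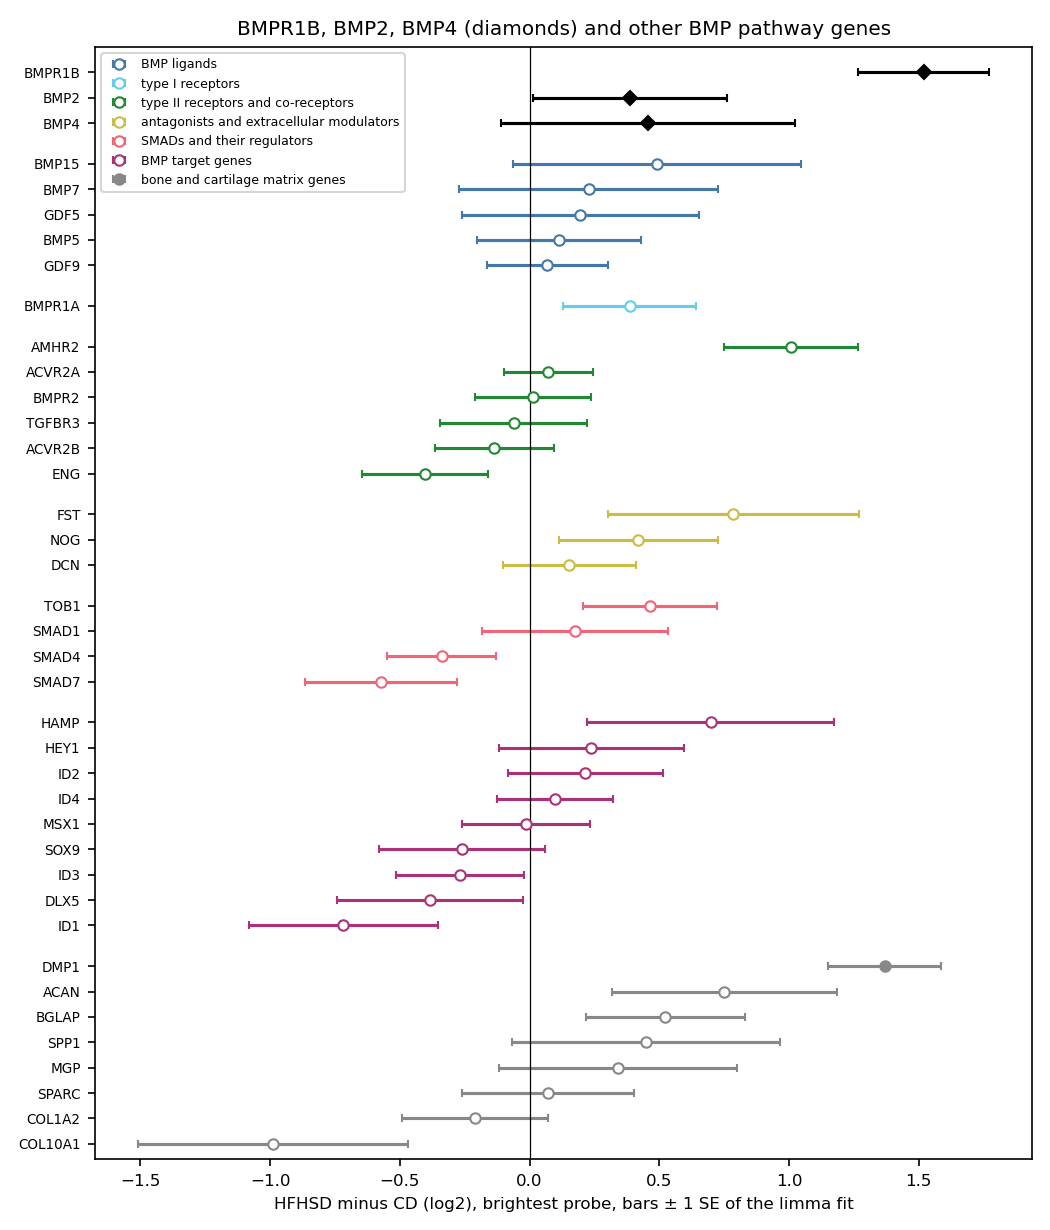
HFHSD minus CD difference in log2, with ± 1 SE of the limma fit, for BMPR1B, BMP2 and BMP4 (diamonds) and for the 36 other measured pathway genes, coloured by list. Filled circles passed at an adjusted p under 0.05: DMP1 at 1.37 is the one such gene, and BMPR1B at 1.52 lies to the right of every other point.

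Among genes of bone and cartilage matrix, which BMPs are named for inducing, 1 of 8 measured genes passed. DMP1, a phosphoprotein of bone and dentine, read -4.29, -3.90 and -3.90 in CD and ran from -2.96 to -2.26 in HFHSD. The group means were 1.37 apart (SE 0.22, adjusted p = 0.0254), with 2 of 3 CD and 6 of 6 HFHSD arrays well above background. CD 1 was not, and the limit of that array lay above all 6 HFHSD values. The call was lost in 4 of 11 alternatives and on leaving out any 1 of 6 arrays (HFHSD 2, 3 or 6 or any CD animal), with an adjusted p of 0.0512 to 0.13 in the latter, and with normexp and percentile scaling the difference was -0.017. ACAN, the cartilage proteoglycan aggrecan, differed by 0.75 (adjusted p = 0.443) with no overlap, but 2 other probes of it were lower in HFHSD. BGLAP, which encodes osteocalcin, differed by 0.52 (adjusted p = 0.452) and COL10A1, a collagen of hypertrophic cartilage, by -0.99 (adjusted p = 0.390).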

How the data were processed

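RNA of 9 muscles was hybridised to Agilent porcine arrays with a single dye, Cy3. The authors deposited scanner files with spot intensity values on a linear scale, extracted with Agilent Feature Extraction 10.7.3.1, per the file headers, which subtract background and detrend within an array. The deposited series table held the same intensity values (0 spots differed). Per-sample columns outside the series numbered 0. The 0 or 1 calls on spots are those of the scanner software.

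Control and outlier spots were left out, spots of a probe averaged, and 22 probes with no usable spot on some array dropped. Probes were named through RefSeq accessions of the Sscrofa11.1 gene table (6891 probes, 3196 genes). The diet contrast was fitted by limma 3.58.1 (R 4.3.3; lmFit, eBayes, two-sided), with p adjusted by Benjamini-Hochberg over 27922 probes, threshold 0.05, and checked on simulated data. A gene is its brightest probe. The normexp alternatives used the median spot signal, a column chosen after seeing the data, with an offset of 50. Members and lists were chosen with earlier results of these data known. Named genes are each list's passing genes, up to 4 with the smallest p, and the 4 nearest profiles of each member; GDF9, BMPR2, ID2 and ID4 and the dimmer probes were added after their values were seen. The number of arrays limits the precision.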

Additional observations from a re-analysis of the deposited data

Results flagged for a closer look

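BMP4 by probe A_72_P440801 had HFHSD 5 at -5.00, far below the other 5 HFHSD arrays: the gap to the nearest was 0.89 of the group's range, above the critical value of 0.625 for 6 arrays. That array lay on slide 1 and its spot was not well above background. BGLAP had HFHSD 1 at -2.35, with a gap of 0.74 of the range. Over 30 such groups 2 stood out, and chance marks about 1 in 20.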

How the results depend on the processing

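Over 12 alternatives and 9 left-out arrays, BMPR1B kept its sign by its brightest probe or, in 1 setting, the mean of its probes. The brightest probe was at 0.73 and 0.80 in the pair of normexp settings and between 1.47 and 1.64 in 9 others. The mean of the gene's probes gave 1.37. Among the 9 others, some leave the difference of a probe unchanged by design, at 1.52 for BMPR1B. These were the series table values, no filter on dim probes, the filter on all 9 arrays and the variance trend. They are no check on the size or sign, for BMPR1B or for the ligands. With normexp and percentile scaling the dimmer probes, A_72_P457538 and A_72_P442786, were at -0.12 and -0.30. BMP2 was -0.32 with normexp and percentile scaling and -0.052 with normexp and quantile normalisation, and BMP4 was -0.18 in the former. Leaving out single arrays gave 1.42 to 1.60 for BMPR1B, -0.044 to 0.64 for BMP2 and 0.099 to 0.87 for BMP4. Neither ligand was well above background on all 9 arrays, so that filter gave no value for them.

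The count of probes that passed, 345, was 88 with normexp and percentile scaling, 853 with normexp and quantile normalisation, 66 with no filter on dim probes, 735 with probes well above background on all 9 arrays, 82 with slide as a fixed block, 678 with it as a random block, 1206 with array weights, 615 with a variance trend and robust prior, and 25 to 325 without single arrays (25 without CD 3, 32 without CD 1, 75 without HFHSD 3). The count of other pathway genes, 1, was 0 with quantile normalisation, 0 with normexp and percentile scaling and 0 with normexp and quantile normalisation. It was 0 with no filter and 0 to 1 without single arrays. With the filter on all 9 arrays it was 0 of 22 genes, but that filter left DMP1 untested, so its call could not appear there.

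Of 743 comparisons for 36 other named genes, 675 kept their sign and side of the threshold and 36 changed sign. With the sign kept, 19 lost a call and 13 gained one. The settings that leave a difference unchanged by design, named above, could not turn a sign. These losses were 9 for DMP1 and 10 for TIGD4, the latter in 3 alternatives and on leaving out any of 7 arrays. DMP1 also lost its call with normexp and percentile scaling (limma, adjusted p = 0.978), which is counted among the changes of sign. The gains were 7 for EIF1AX, 5 for KLF5 and 1 for PREPL. TIGD4, EIF1AX, KLF5 and PREPL were picked for their likeness to BMPR1B on these same arrays, so nothing is read from their calls. Signs turned with normexp and percentile scaling for DMP1 (-0.017), AMHR2 (-0.16), BMP15 (-0.057), BMP7 (-0.33), GDF5 (-0.28), BMP5 (-0.16), ACVR2A (-0.18), NOG (-0.22), BGLAP (-0.051), SMAD4 (0.087), ID3 (0.11), EFNB2 (-0.39), KCNIP1 (-0.19) and PAQR8 (-0.27). With normexp and quantile normalisation they turned for BMP5 (-0.11) and ACVR2B (5.4e-04). With slide as a fixed block they turned for GDF5 (-0.41), BMP7 (-0.023), ACVR2A (-0.020) and ID3 (0.064), with slide as a random block for GDF5 (-0.072), with array weights for NLN (-0.073) and PAQR8 (-0.040), and with the mean of a gene's probes for ACAN (-0.14), BMP15 (-0.30) and NLN (-0.60). Leaving out single arrays also turned signs: without CD 1 those of ACVR2B (range over the 9 left-out arrays -0.26 to 0.11), BMP15 (-0.051 to 0.93), NLN (-0.076 to 0.30) and PAQR8 (-0.26 to 0.55), without CD 3 those of BMP5 (-0.21 to 0.49), DCN (-0.12 to 0.40) and IGF2 (-0.059 to 0.35), without CD 2 or CD 3 that of HBEGF (-0.13 to 0.46), and without HFHSD 6 that of GDF5 (-0.070 to 0.43). The cause was not tested. No paired analysis was possible because the labels number no animals across the diets. Signal near background limits BMP2, BMP4 and the dimmer BMPR1B probes.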
